A study of Homo sapiens with 4 samples.

Results

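The regions described were internal exons, mostly coding, and the nucleosomes on them and at their splice sites, in human BE(2)C neuroblastoma cells. An exon entered when it was neither the first nor the last exon of the canonical transcript of an autosomal protein-coding gene, was 100 to 200 bp long and had over 500 bp of intron on both sides. The GENCODE v44 annotation placed on GRCh37 (hg19) gave 53083 such exons of 11977 genes, among 158121 internal exons of 18643 canonical transcripts. The rule uses only the annotation and no read value, though it was set with earlier results of these data known. Of these exons 50502 (95.1%) were coding over their whole length. The median length was 138 bp, with quartiles of 118 and 163 bp. The flanking introns ended in AG before the exon and began with GT after it for 98.8% of the exons, and 0.821% had AG and GC. The median intron length was 2757 bp upstream and 2492 bp downstream.

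BE(2)C is an established line with amplified MYCN, the MYC family oncogene of high-risk neuroblastoma. Cells in the control group had the labelled genotype wild type and received a control siRNA, and cells in the MYCN knockdown group received siRNA against MYCN, labelled N-myc kd. Both groups were transfected with Lipofectamine 2000. The labels give an siRNA concentration of 80 nM, whereas the methods of the study give a lower one. Crosslinked chromatin was treated with micrococcal nuclease (MNase), an enzyme that cleaves linker DNA and leaves the DNA on nucleosomes, and the fragments left were sequenced. There were 2 control and 2 MYCN knockdown libraries, called control 1, control 2, knockdown 1 and knockdown 2, all from 1 cell line. The level of MYCN was not analysed here, since these libraries hold no expression. The 4 lists held 147726171, 242544884, 147370973 and 239257113 reads in 10527010, 12120711, 10677252 and 12178724 called nucleosomes. Both replicate 2 lists thus held more reads than both replicate 1 lists, so replicate number and list size cannot be told apart.

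A nucleosome is a stretch of DNA wrapped around a core of histones, and the dyad is its midpoint. The deposited lists give, for each called nucleosome, the dyad position, the read count and the fuzziness, which is the spread of the read midpoints around that dyad given as a standard deviation in bp, so that a low value means a sharply placed nucleosome. Internal exons are recognised by the spliceosome through the 3′ splice site before the exon, which ends in AG after a tract rich in pyrimidines, and through the 5′ splice site after it, which begins with GT. Exons are known to be richer in G and C than the introns around them, and nucleosomes are known to form preferentially on GC-rich DNA and to avoid runs of A and T. Exons of the length taken here are close to the length of DNA on 1 nucleosome.

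The following sequences show what such an exon looks like, with the last 30 bases of the intron before it and the first 15 bases of the intron after it. Exon bases are in capitals and intron bases in lower case, read 5′ to 3′ in the direction of transcription from GRCh37. SEC16B exon 14 (chr1:177915540-177915696 on the minus strand) had the lowest fuzziness, as a mean over libraries, among 326 exons with repeatable dyads, and its dyad lay at the exon centre. MYH9 exon 35 (chr22:36682749-36682922 on the minus strand) and NPAS1 exon 6 (chr19:47539192-47539402 on the plus strand) are shown because they belong to the 5 lowest by the same rule but their dyads lay near the 3′ and the 5′ splice site. RBP2 exon 3 (chr3:139173556-139173702 on the minus strand) and DIP2A exon 7 (chr21:47929140-47929304 on the plus strand) had among the highest exon reads relative to their own introns. DPP6 exon 22 (chr7:154677313-154677469 on the plus strand) had no called dyad in any library. In all 6 the lower-case run before the exon ends in ag, and in all 6 the intron after it begins with gt.
SEC16B: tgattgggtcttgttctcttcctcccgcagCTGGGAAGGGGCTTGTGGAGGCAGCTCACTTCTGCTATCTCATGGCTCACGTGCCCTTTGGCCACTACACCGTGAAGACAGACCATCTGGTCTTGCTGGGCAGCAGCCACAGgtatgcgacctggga
MYH9: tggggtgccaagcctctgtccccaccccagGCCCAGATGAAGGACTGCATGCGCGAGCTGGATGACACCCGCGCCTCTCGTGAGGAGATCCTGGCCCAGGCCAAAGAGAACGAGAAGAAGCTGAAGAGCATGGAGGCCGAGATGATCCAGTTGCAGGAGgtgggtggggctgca
NPAS1: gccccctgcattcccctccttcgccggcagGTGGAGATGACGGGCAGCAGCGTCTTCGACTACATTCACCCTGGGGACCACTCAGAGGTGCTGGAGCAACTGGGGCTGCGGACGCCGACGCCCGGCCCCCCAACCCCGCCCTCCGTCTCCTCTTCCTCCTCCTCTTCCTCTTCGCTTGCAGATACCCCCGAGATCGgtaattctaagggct
RBP2: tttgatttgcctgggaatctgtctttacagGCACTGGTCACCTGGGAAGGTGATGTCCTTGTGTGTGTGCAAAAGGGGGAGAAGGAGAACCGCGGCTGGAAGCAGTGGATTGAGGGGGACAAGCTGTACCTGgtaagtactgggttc
DIP2A: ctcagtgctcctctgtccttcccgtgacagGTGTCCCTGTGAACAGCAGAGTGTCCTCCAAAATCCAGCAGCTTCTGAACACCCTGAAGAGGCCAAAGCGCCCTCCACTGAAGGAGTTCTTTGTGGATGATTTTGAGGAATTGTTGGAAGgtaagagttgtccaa
DPP6: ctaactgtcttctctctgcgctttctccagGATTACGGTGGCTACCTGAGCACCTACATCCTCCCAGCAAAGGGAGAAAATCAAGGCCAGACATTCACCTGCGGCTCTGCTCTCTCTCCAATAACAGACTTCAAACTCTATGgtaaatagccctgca

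Reads of called nucleosomes were denser on these exons than in the introns beside them. With the dyad inside the exon there were 78.0 reads per kb in control 1, 121 in control 2, 75.9 in knockdown 1 and 117 in knockdown 2. In the flanks, taken as 200 to 500 bp from the exon centre on both sides, the values were 53.9, 89.9, 53.0 and 87.6 reads per kb. The flanks were close to the autosomal average, which was 53.5, 87.5, 53.3 and 86.3 reads per kb. The read density on exons over that of their flanks was 1.45 in control 1, 1.34 in control 2, 1.43 in knockdown 1 and 1.34 in knockdown 2, a mean of 1.39 ± 0.058 (SD, n = 4). It lay above 1 in 4 of 4 libraries (exact sign-flip permutation test over libraries, two-sided, p = 0.125, the smallest p that 4 libraries allow, also after adjustment over 4 such measures). Dyads counted without their reads gave a lower ratio, 1.30, 1.20, 1.29 and 1.19, and exon nucleosomes also held more reads each. An exon nucleosome held on average 15.8, 23.1, 15.3 and 22.4 reads, and a flank nucleosome 14.2, 20.6, 13.8 and 19.9. The excess was not shared by every exon. Between 63.4% and 65.6% of exons per library had a higher read density than their own flanks.

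The reads formed 1 narrow peak over the exon centre with a dip on each side. A called nucleosome at the centre leaves less room for another beside it, and the part of this in the dips was not tested. In 10-bp bins, smoothed over 3 bins, the highest value lay 5 bp before the exon centre in all 4 libraries and was 1.95, 1.78, 1.97 and 1.77 times the flank level. The lowest value lay 135 bp before the centre, at 0.75, 0.72, 0.72 and 0.72. After the exon the lowest value was shallower, between 0.81 and 0.85, at 125 bp from the centre in both replicate 2 libraries, at 185 bp in control 1 and at 195 bp in knockdown 1. Farther out, between 150 and 350 bp, the profile came back to 1.01 to 1.03 upstream and 1.05 to 1.07 downstream. The GC content of the same windows followed part of this shape, with its highest value of 48.7% in the bin 5 bp after the centre and its lowest of 39.3% in the bin 105 bp before it.

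**Figure D1:**
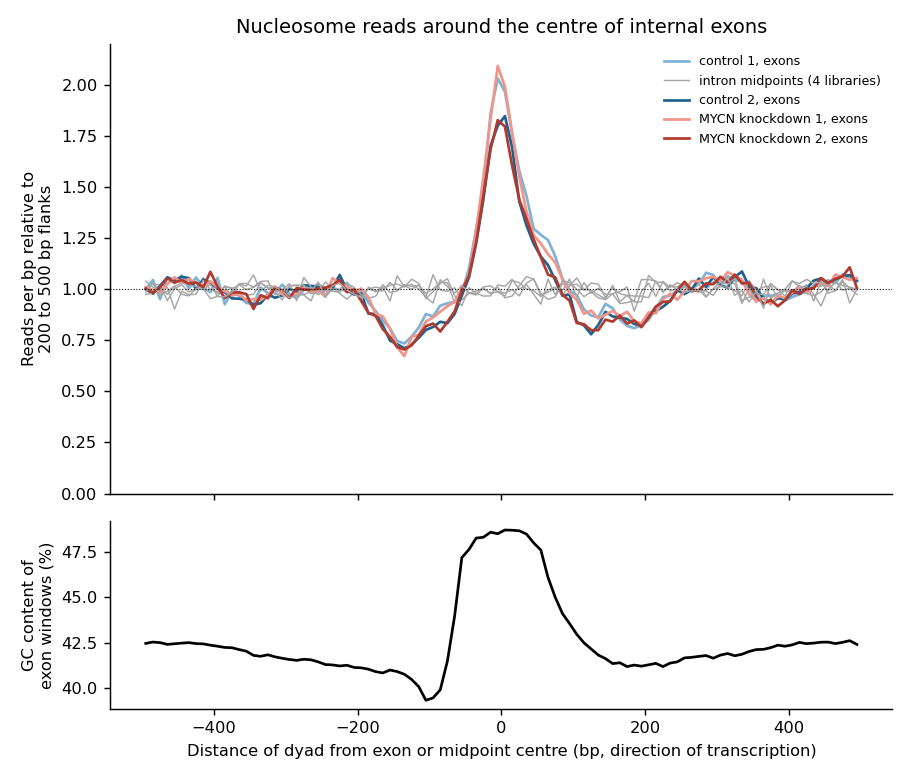
Reads of called nucleosomes by distance of the dyad from the exon centre (bp), in 10-bp bins, relative to the flanks at 200 to 500 bp, for 53083 exons in each of the 4 libraries (coloured lines) and for 29346 intron midpoints (grey lines, 1 per library), above the GC content of the exon windows. The 4 exon lines peak at the centre and dip on both sides, with both replicate 1 libraries above both replicate 2 libraries at the peak, while the grey lines stay near 1.

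Intron midpoints served as the comparison for the shape. They were 29346 windows of 138 bp in the middle of introns over 2000 bp, with no annotated exon within 500 bp, and were added after the exon profile had been seen. Their read density over their flanks was 0.992 in control 1, 0.993 in control 2, 0.990 in knockdown 1 and 0.996 in knockdown 2. Their smoothed profile stayed between 0.94 and 1.05 over the whole window. Exons stood 1.40-fold above them, in 4 of 4 libraries (exact sign-flip permutation test, two-sided, p = 0.125, adjusted over 18 class comparisons 0.173).

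Aligned to the 3′ splice site, the peak lay about 75 bp inside the exon and the lowest point between 65 and 75 bp before it. The smoothed minimum was 0.69 in control 1, 0.68 in control 2 and 0.68 in knockdown 1, each in the bin 75 bp before the first exon base, and 0.69 in knockdown 2, in the bin 65 bp before it. Aligned to the 5′ splice site, the minimum was 0.80 in control 1, 0.78 in control 2, 0.82 in knockdown 1 and 0.79 in knockdown 2, lying 55 bp into the intron in 3 libraries and 115 bp into it in control 1. The dip was thus deeper before the exon than after it in each library. The bases 60 to 11 bp before the exon held 0.87, 0.80, 0.84 and 0.80 of the flank level, and the bases 11 to 60 bp after it held 0.96, 0.88, 0.95 and 0.88. Nucleosomes with a dyad before the exon had a fuzziness of 35.6, 36.9, 35.5 and 36.9 bp, and those after it 35.5, 36.8, 35.4 and 36.6 bp.

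**Figure D2:**
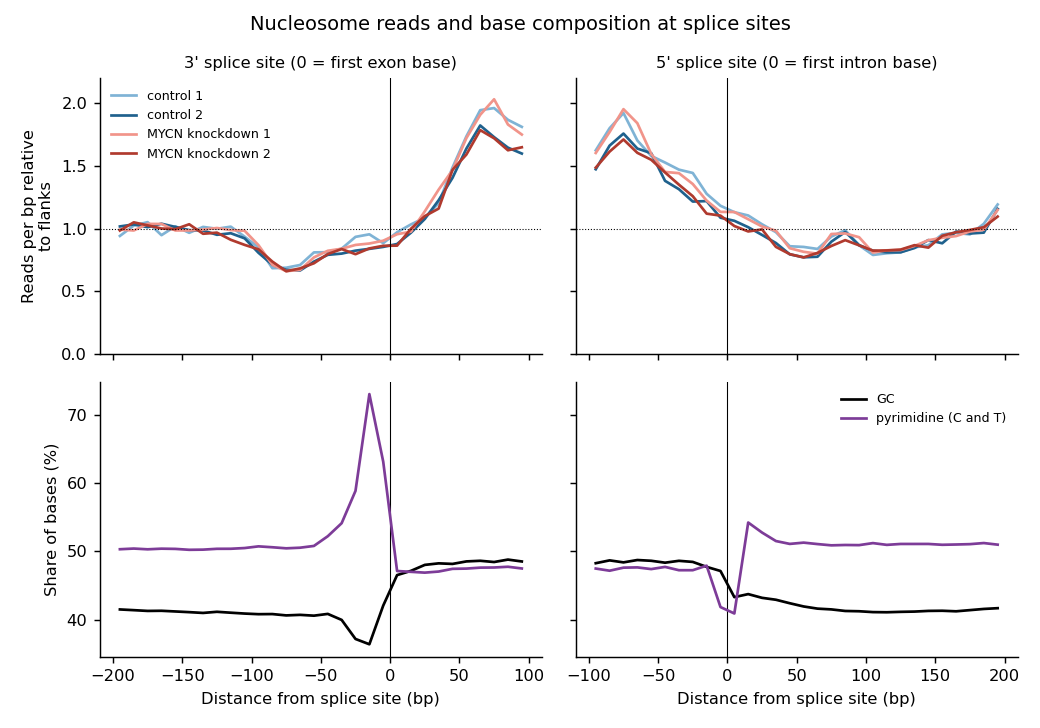
Reads of called nucleosomes relative to the flanks (top) and the shares of GC and of pyrimidine bases (bottom, in percent) by distance from the 3′ splice site (left) and the 5′ splice site (right), in 10-bp bins, for the 4 libraries. The pyrimidine share is highest, at 73%, in the bin 15 bp before the exon, where GC is lowest, at 36.4%. The reads, placed by dyad, are lowest farther into the intron.

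The pyrimidine share was highest in the bin 15 bp before the exon, and reads were lowest for dyads 65 or 75 bp before it. A called nucleosome of 147 bp with its dyad there also spans the tract, and the relation of tract and dip was not tested. Exons with a higher pyrimidine share had more reads just before the exon. Among 9408 exons with a pyrimidine share under 60% before the exon, the bases 60 to 11 bp before the exon held 0.80, 0.72, 0.77 and 0.72 of the flank level. Among 9576 exons with a share of 80% or more, the same bases held 0.93, 0.86, 0.90 and 0.88. The latter exons also had a higher median GC, 49.1% against 45.5%, and the part of GC in this difference was not tested.

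The peak followed the middle of the exon and not a fixed distance from the splice site. In 13944 exons of 100 to under 120 bp the peak lay 55 or 65 bp from the first exon base, in 13442 exons of 120 to under 140 bp 65 bp and in 10958 exons of 140 to under 160 bp 75 bp from it. In 8628 exons of 160 to under 180 bp it lay at 75 or 85 bp and in 6111 exons of 180 to 200 bp at 95 bp. Reads within 20 bp of the centre were 1.54 to 1.62 times the flank level in the shortest group, 1.72 to 1.93 in the next, and 1.79 to 2.14 in the 3 longer ones. The share of exons holding a dyad was 56.0 to 60.8% in the shortest group and 86.2 to 89.5% in the longest, a longer window having room for more dyads. Shorter internal exons of 50 to 99 bp, of which there were 25973 with introns over 500 bp, had lower ratios of 1.19, 1.17, 1.21 and 1.18. Exons of 100 to 200 bp stood 1.17-fold above them in 4 of 4 libraries (exact sign-flip permutation test, two-sided, p = 0.125), though the shorter exons also had a smaller median GC excess over their flanks, 3.77 against 6.22 points. For 9460 exons over 200 and up to 300 bp the ratios were 1.45, 1.33, 1.43 and 1.31, which differed from the exons of 100 to 200 bp by 1.01-fold in 3 of 4 libraries (p = 0.375, exact).

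Base composition went with the size of the exon excess. The median GC content was 47.2% in the exons and 41% in their flanks, and 79.9% of exons were richer in GC than their flanks. The ratio of exon to flank reads was between 0.81 and 0.95 in the 2484 exons with under 35% GC and highest in the 9942 exons with 45 to 50% GC, at 1.64, 1.47, 1.63 and 1.48. It was lower again in the 5878 exons with 60% GC or more, at 1.23 to 1.27. By GC excess over the flanks the ratio rose throughout. It was 0.85 to 0.89 in 7181 exons that were over 2 points poorer in GC than their flanks. It was 1.09, 1.07, 1.13 and 1.07 in the 7849 exons within 2 points of their flanks. It reached 2.37, 2.06, 2.23 and 2.00 in the 7451 exons over 14 points richer. The intron midpoints rose along the same scale, from 0.59 to 0.67 in the poorest class to 1.99 to 2.23 in the richest.

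At equal GC excess, the average read density over the exon was only slightly higher than over an intron midpoint, but its shape differed. Over the whole window, exons within 2 points of their flanks stood 1.12-fold above midpoints of the same class, and the classes from 2 points upward 1.03-fold to 1.08-fold, each in 4 of 4 libraries (exact sign-flip permutation test, two-sided, p = 0.125, adjusted 0.173). Within 20 bp of the centre the gap was wider. In the class within 2 points of the flanks the reads there were 1.38, 1.30, 1.33 and 1.29 times the flank level on exons and 0.91, 0.93, 0.92 and 0.91 at midpoints, a fold of 1.44. The fold was 1.29 in the class of 2 to 6 points, 1.29 in the class of 6 to 10 points, 1.21 in the class of 10 to 14 points and 1.18 above 14 points. Between 100 and 150 bp before the centre the order turned. Exons held a mean of 0.62 to 0.86 of the flank level over the 6 classes, and midpoints 0.95 to 1.23. In the class within 2 points the values were 0.72, 0.73, 0.67 and 0.71 on exons and 0.998, 1.02, 1.05 and 1.05 at midpoints. In all 6 classes the centre was higher and both sides were lower on exons than at midpoints in 4 of 4 libraries (p = 0.125 in each, exact, adjusted over 24 comparisons 0.136). The centre and the sides are not independent measures, since dyads of called nucleosomes of 147 bp were kept apart. No exon under 140 bp held 2 dyads in any library. Only 234 exons in control 1, 272 in control 2, 226 in knockdown 1 and 268 in knockdown 2 held 2 or more dyads. A dyad near the centre thus leaves less room beside it. How much of the lower sides follows from the higher centre was not tested. The GC classes matched the average composition of a window and not the order of its bases, and the class over 2 points poorer was not alike in both sets, with a median excess of −4.98 points in exons and −7.19 points at midpoints.

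**Figure D3:**
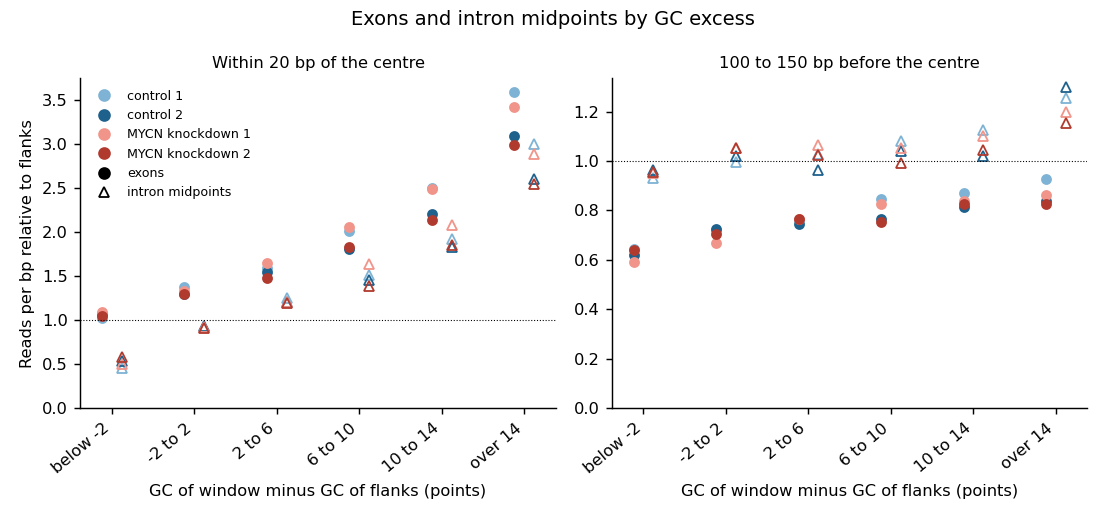
Reads of called nucleosomes relative to the flanks within 20 bp of the centre (left) and 100 to 150 bp before it (right), by the GC excess of the window over its flanks in percentage points, for exons (filled circles) and intron midpoints (open triangles), 1 point per library. At the centre both rise with GC excess and the exons lie above the midpoints, while before the centre the exons stay below 1 in each class.

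Mean fuzziness was slightly lower on exons than in the flanks. Mean fuzziness was 34.61 bp in control 1, 35.86 in control 2, 34.61 in knockdown 1 and 35.89 in knockdown 2 on exons, against 34.69, 36.20, 34.65 and 36.15 bp in the flanks. The difference was −0.181 ± 0.142 bp (SD, n = 4), between −0.337 and −0.0395, and below 0 in 4 of 4 libraries (exact sign-flip permutation test, two-sided, p = 0.125). By medians knockdown 1 went the other way, at 35.16 bp on exons and 35.15 in the flanks, and control 1 had 35.16 and 35.22 bp. Nucleosomes within 20 bp of the exon centre had lower means, at 33.97, 35.43, 34.10 and 35.43 bp. The least sharp nucleosomes lay in the dip before the exon, where the smoothed profile reached 36.12, 37.23, 36.17 and 37.22 bp at 135 to 155 bp before the centre. The smoothed profile of intron midpoints stayed within 34.30 to 34.75 bp in control 1 and within 36.05 to 36.50 bp in control 2.

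Fuzziness rose with the read count of a nucleosome, so exon and flank nucleosomes of equal read count were also compared. Among those with 6 to 9 reads, the exon nucleosomes differed from the flank nucleosomes by −0.996 bp in control 1, −1.56 in control 2, −0.87 in knockdown 1 and −1.19 in knockdown 2. Among those with 30 to 49 reads the exon minus flank difference was 0.27 bp in control 1, −0.037 in control 2, 0.26 in knockdown 1 and 0.028 in knockdown 2. At 20 to 29 reads it was 0.16 bp in control 1, −0.32 in control 2, 0.24 in knockdown 1 and −0.22 in knockdown 2. The lower fuzziness of exons was thus clearest among nucleosomes with few reads, and the difference was near 0 or above it at 30 to 49 reads. Within 20 bp of the exon centre, nucleosomes with 20 to 29 reads differed from flank nucleosomes by −0.18, −0.63, −0.11 and −0.64 bp. With 30 to 49 reads they differed by 0.17, −0.21, −0.23 and −0.21 bp.

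**Figure D4:**
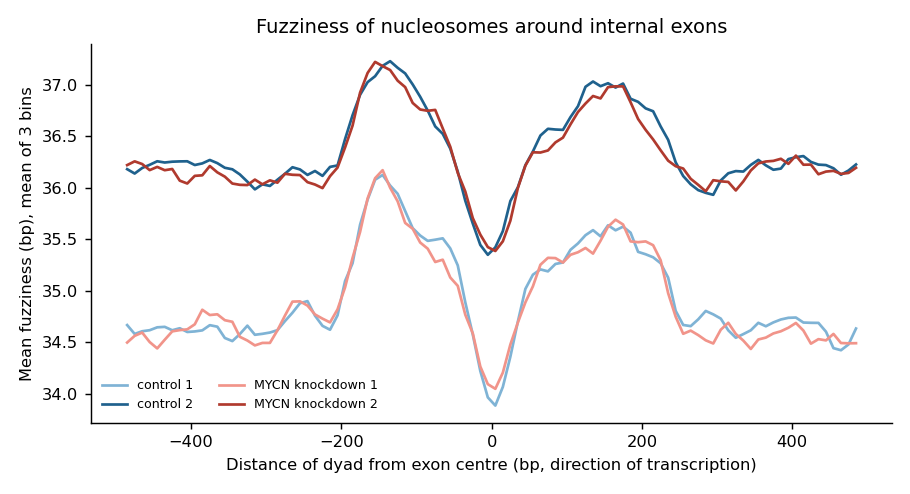
Mean fuzziness (bp, mean over 3 bins of 10 bp) of nucleosomes by distance of the dyad from the exon centre, for the 4 libraries. Each line is lowest at the centre and highest 135 to 155 bp before it, and both replicate 2 libraries lie above both replicate 1 libraries at every distance.

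Dyads in exons lay nearer to a dyad of another library than dyads in the flanks did, but seldom within a few bp. Dyads are also denser on exons, which shortens the distance to the nearest one, so closer placement is not shown by these values. From a dyad in an exon to the nearest dyad of another library the median distance was 28 or 29 bp over the 6 pairs of libraries, against 33 to 36 bp in the flanks. It was within 10 bp for 24.6 to 26.5% of exon dyads and 21.8 to 24.2% of flank dyads. The nearest dyad was over 120 bp away for 3.97 to 7.03% of exon dyads and 7.77 to 12.2% of flank dyads. The median was 28.5 bp on average between replicates of a group, 28 bp between same-numbered libraries of different groups and 28.5 bp between libraries that differed in both.

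A dyad was called inside 69.5, 73.5, 69.8 and 73.6% of the exons. In all 4 libraries 21342 exons (40.2%) held one, and the 4 dyads of these exons lay a median of 49 bp apart from first to last, within 10 bp in 1143 of them (5.36%). No library had a dyad in 2829 exons (5.33%). These were shorter, with a median of 118 bp against 152 bp for exons with a dyad in all 4 libraries. Their median GC was 49.7%, and their GC excess over the flanks was smaller, 3.59 against 7.79 points. Their flanks were not poor in reads, with 77.3 per kb against 70.7 for the other exons. A missing dyad here means no called nucleosome of at least 6 reads, since nucleosomes with fewer reads were left out of the lists.

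Single exons showed both extremes. In SEC16B, which encodes a protein of endoplasmic reticulum exit sites, the dyad lay 2, 0, 5 and −1 bp from the centre of exon 14 in control 1, control 2, knockdown 1 and knockdown 2, with fuzziness of 15.95, 26.17, 17.51 and 25.54 bp and 28, 50, 30 and 40 reads. This exon came first both by mean fuzziness, at 21.29 bp against 21.30 for MYH9 exon 35, and by its reads relative to its own flanks. Its lowest single value, 15.95 bp, lay above the lowest of MYH9 exon 35, 15.06 bp, and of MPND exon 4, 14.71 bp. In MYH9, a non-muscle myosin heavy chain, the dyad lay 53, 54, 48 and 46 bp before the centre of exon 35, with fuzziness of 19.53, 22.26, 15.06 and 28.35 bp. In NPAS1, a neuronal transcription factor, it lay 57, 52, 56 and 47 bp after the centre of exon 6. Both nucleosomes lay nearer to 1 splice site. That their dyads stayed within 10 bp between libraries was a condition of the choice. MPND exon 4, with dyads 59 to 63 bp before the centre, and PLA2G4E exon 15, with dyads 56 to 64 bp before it, were the other two of the 5 sharpest. The 5 were the lowest in mean fuzziness of 326 exons with at least 20 reads in each library and all dyads within 10 bp.

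The 5 exons highest in reads over their own flanks were SEC16B exon 14, CNTNAP3C exon 3, PDE4DIP exon 42, RBP2 exon 3 and DIP2A exon 7, with mean log2 ratios of 2.22, 2.18, 2.18, 2.16 and 2.16. RBP2 encodes a cellular retinol-binding protein, and its exon 3 held 23, 36, 22 and 36 reads. DIP2A exon 7 held 32, 44, 24 and 45 reads. The nucleosome of RBP2 exon 3 was high without being sharp, with fuzziness of 37.29 to 41.35 bp and a dyad that moved from 4 bp after to 40 bp before the centre between libraries. CNTNAP3C and PDE4DIP have near-identical copies elsewhere in the genome, so their reads are uncertain. The CNTNAP3C exon, at 103 bp, also lacks AG before it. At the other end, DPP6, an auxiliary subunit of potassium channels, had no dyad in exon 22 in any library although the bases within 100 bp of the exon centre held 37, 45, 30 and 41 reads and the flanks 99, 149, 101 and 144. Its dyads thus lay outside the exon, although the nucleosomes could reach into it. SECTM1 exon 4 had 19, 36, 28 and 26 reads with a dyad within 100 bp of the centre and no dyad inside the exon. SYT15 exon 6 and HYDIN exons 18 and 45 were the other empty exons with the most flank reads, and both genes have close copies.

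Classes of exons by transcript use differed little. Exons present in all of 3 or more annotated transcripts that span them (26002) had ratios of 1.47, 1.36, 1.45 and 1.35, and exons left out by at least 1 such transcript (6459) 1.43, 1.33, 1.44 and 1.32. The fold between them was 1.02 in 4 of 4 libraries (exact sign-flip permutation test, two-sided, p = 0.125). At a GC excess of 4 to 8 points it was 1.01 in 3 of 4 libraries (p = 0.25, exact). Fully coding exons and the 2581 others differed by 1.02-fold in 3 of 4 libraries (p = 0.375, exact). At a GC excess of 4 to 8 points the fold of fully coding exons over the others was 0.98, and above 1 in 1 of 4 libraries (p = 0.625, exact). Exons after an upstream intron of over 20000 bp had a ratio of 1.48 to 1.62, against 1.27 to 1.37 after an intron of up to 1000 bp, a fold of 1.18 in 4 of 4 libraries (p = 0.125, exact). At a GC excess of 4 to 8 points these ranges were 1.29 to 1.47 and 1.22 to 1.33. By chromosome the ratio ran from 1.09 to 1.19 on chromosome 19, the richest in GC with a median of 57.9% over its exons, to 1.45 to 1.67 on chromosome 18. On chromosome 18 a dyad was called in 58.4% of exons in control 1 and 59.2% in knockdown 1, against 69.5 and 69.8% of all these exons. In control 2 and knockdown 2 the shares were 71.6 and 72.4%, against 73.5 and 73.6%. The part of coverage in the ratio of this chromosome was not tested.

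The comparison the study was designed for is MYCN knockdown against control. Knockdown lowers MYCN, of which the histone chaperone FACT, made of the SUPT16H and SSRP1 proteins, is a described target, and the question asked is how nucleosomes respond. On these exons the groups overlapped in every measure. The log2 exon over flank ratio was 0.48 ± 0.077 in the control and 0.47 ± 0.071 in the knockdown (mean ± SD, n = 2). The difference was −0.0082, with −0.0127 between the replicate 1 libraries and −0.0037 between the replicate 2 libraries (exact permutation test, two-sided, p = 0.667, adjusted over 11 measures 0.733, where 2 against 2 libraries allow no p below 0.333). Between replicates of a group the same log2 ratio differed by −0.109 in the control and −0.0998 in the knockdown. The share of exons with a dyad was 0.209 points higher in the knockdown, with 0.290 and 0.128 points by replicate number, against 4.01 and 3.85 points between replicates. Mean exon fuzziness differed by 0.0127 bp between the groups and by 1.26 and 1.28 bp between replicates (p = 0.667 for each, exact permutation test).

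**Figure D5:**
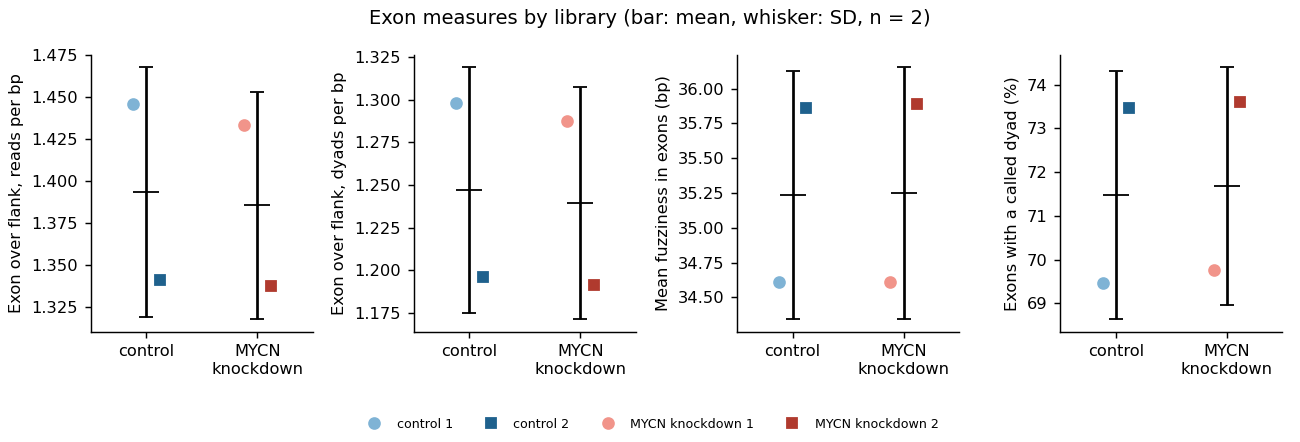
Exon over flank read ratio, exon over flank dyad ratio, mean fuzziness of exon nucleosomes (bp) and share of exons with a called dyad (%), for control and MYCN knockdown libraries. Each point is 1 library (circle, replicate 1, square, replicate 2), the bar is the mean and the whisker the SD of 2 libraries. In each panel both groups have nearly the same mean, and the replicates lie farther apart than the groups.

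The small group difference changed with GC excess. Knockdown minus control, the log2 exon over flank ratio was 0.039 in exons over 2 points poorer in GC than their flanks and 0.026 in those within 2 points. It was 0.0012, −0.0040 and −0.043 in the next classes, and −0.065 in exons over 14 points richer. In the richest class both replicate numbers gave a lower value in the knockdown, −0.088 and −0.043, and in the poorest both gave a higher one, 0.064 and 0.014. Intron midpoints went from 0.063 in the poorest class to −0.054 in the richest, but not steadily, with −0.0070, −0.037, −0.0048 and −0.050 in the classes between. Control replicates differed by −0.204 in the richest class of exons, more than the groups did, and by 0.036 in the poorest, less than the groups did. In the poorest class of exons the groups did not overlap, with 0.851 and 0.872 in the control and 0.889 and 0.880 in the knockdown. They overlapped in every other class of exons and in every class of midpoints. No test was made of these differences by class.

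Reads within 100 bp of the exon centre were tested exon by exon with edgeR on all internal exons with a mean of at least 10 reads. No exon passed an adjusted p of 0.05 (0% of 128034 exons tested, and 0 of the 44560 exons described here that passed the filter), the smallest adjusted p being 0.9999. At an unadjusted p under 0.05 there were 910 (440 higher and 470 lower in the knockdown), which is 2.04% of those tested, against 2.45% of all internal exons. Both shares lie below the 0.05 expected without any change, so the test was conservative. The lack of calls does not show that no exon changed. DESeq2 called 22 (7 higher and 15 lower, 0.0494%), against 0.0836% of all internal exons. The median log2 change was 0.02. A dyad in both knockdown libraries and in neither control was found in 1472 exons (2.77%), against 2.59% of all internal exons. The reverse was found in 1425 (2.68%), against 2.57%. The shares in both directions were close to each other and to those of all internal exons.

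The exons with the smallest unadjusted p were mostly ones where a nucleosome was called in 1 group and no nucleosome of at least 6 reads in the other. Reads are given here for dyads within 100 bp of the exon centre. KALRN exon 8 held 0 reads in both controls and 49 and 69 in the knockdown libraries (unadjusted p = 0.000735, edgeR adjusted p = 0.9999). ZDHHC11 exon 4 held 0, 0, 34 and 55 reads, which are uncertain because the gene has a close copy. EPHB1 exon 7, of an ephrin receptor, held 13 and 17 reads in the control and 38 and 54 in the knockdown (log2 change 1.66, SE 0.20, edgeR adjusted p = 0.9999). In the other direction CES5A exon 5 held 30, 43, 0 and 0 reads and TTLL12 exon 3 held 28, 45, 0 and 0. For TFF2 exon 2 the reads were 27, 40, 0 and 0 and for HYDIN exon 30 they were 36, 61, 0 and 0, all with dyads outside the exon itself. TBC1D3L exon 8 held 0, 0, 53 and 69 reads and TBC1D3D exon 10 held 40, 56, 0 and 0. These last exons are copies of each other, with the same 121 bases, so which of them the reads came from is uncertain. No fold is given for exons at 0, since nucleosomes with fewer than 6 reads were left out of the lists. With the window widened to 500 bp on each side, the group difference in RPM, the reads scaled to the total of each list, changed sign for TBC1D3L (from 0.324 to −0.0762) and EPHB1 (from 0.163 to −0.0923). In the same wider window the difference shrank from 0.310 to 0.0602 for KALRN, from 0.230 to 0.0273 for ZDHHC11 and from −0.174 to −0.0435 for TFF2. It also went from −0.248 to −0.147 for HYDIN, from −0.188 to −0.121 for TTLL12, from −0.190 to −0.157 for CES5A and from −0.251 to −0.417 for TBC1D3D. With exon bases only it was 0.0814 for KALRN, 0.144 for TBC1D3L, 0.0151 for EPHB1 and 0 for HYDIN and TFF2. Of all exons described here 344 (0.648%) share their exact sequence with another internal exon.

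Gene lists were read out of the same fits, and edgeR called no exon in any of them. The genes of FACT and of DNA repair that the study singled out with its own data (SUPT16H, SSRP1, SMC6, RAD54B and FEN1) had 26 such exons in 3 genes, with ratios of 0.95 and 1.39 in the control and 1.44 and 0.99 in the knockdown. Double-strand break repair genes had 234 exons with ratios of 1.39, 1.37, 1.39 and 1.35. Neuroblastoma drivers and risk genes had 157 exons with 1.65, 1.48, 1.67 and 1.46. Long neuronal adhesion genes had 240 exons with ratios of 2.14, 1.97, 2.14 and 1.93, and 54 exons of genes with well-studied alternative exons had 2.14, 2.05, 1.93 and 1.73. The last lists also had the largest median GC excess, 12 and 12.7 points, against 6.22 for all these exons. In the list of genes with well-studied alternative exons each control ratio lay above each knockdown ratio, and no test was made of this. The groups overlapped in each of the other lists. At an unadjusted p under 0.05 there were 0, 2, 1, 2 and 2 exons lower in the knockdown in the 5 lists, in this order, and 0 higher, of 20, 199, 120, 193 and 53 tested. These are 0, 1.01, 0.833, 1.04 and 3.77% of the exons tested, against 2.04% of all the exons described here and 2.45% of all internal exons.

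Among single genes, FN1, which encodes fibronectin, had 25 of these exons, all with at least 1 dyad in a library and 14 with a dyad in all 4, and ratios of 2.59, 2.26, 2.36 and 1.72. Of its 25 exons tested 2 had an unadjusted p under 0.05 in edgeR, both lower in the knockdown. The share under 0.05 was 2.04% over all the exons described here and 2.45% over all internal exons. FN1 is among the genes with well-studied alternative exons, and its 2 exons are the 2 counted in that list. NBAS, a gene near MYCN on chromosome 2, had 24 exons, 16 of them with a dyad in all 4 libraries, and ratios of 2.05, 1.83, 2.03 and 1.67. ALK, the receptor tyrosine kinase mutated in part of neuroblastomas, had 17 exons with ratios of 1.36, 1.22, 1.45 and 1.36. SUPT16H had 5 exons, whose ratios of 1.15, 1.91, 1.91 and 0.45 spread more between replicates than between groups. With few exons per gene, the libraries of a group differed widely, as in PKM, the pyruvate kinase gene with mutually exclusive exons, whose 3 exons had ratios of 1.95 and 2.36 in the control and 0.97 and 1.49 in the knockdown, and in NCAM1, a neural adhesion molecule, whose 5 exons had 1.22, 1.47, 0.89 and 1.19. In both genes each control value lay above each knockdown value. Other genes had the reverse order. SMC6 had 0.97 and 1.13 in the control and 1.42 and 1.26 in the knockdown, and DDX1 had 1.28 and 1.34 against 2.17 and 1.38. ALK had this reverse order too, but only by 1.3554 in the control against 1.3555 in the knockdown. No exon of PKM or NCAM1 passed an unadjusted p of 0.05 in edgeR, among 3 and 5 tested. The same held for SMC6 and DDX1, among 11 and 3 tested.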

How the data were processed

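MNase-seq libraries of 2 control and 2 MYCN knockdown samples of BE(2)C cells were analysed, with groups taken from the titles. Reads were trimmed by the authors with Trim Galore 0.4.4, mapped to hg19 with Bowtie2 2.2.4 (versions per the labels), filtered to proper pairs with mapping quality above 10, freed of PCR duplicates with Samtools and turned into nucleosome calls per library with Genetrack. Each deposited count was taken as the number of read-pair midpoints of 1 called nucleosome of 147 bp. The methods of the study describe occupancy as a read count after normalization. All were whole numbers of at least 6 and were taken as unscaled. The fuzziness score, deposited by the authors, is the SD of these midpoints in bp. The totals per list, 147370973 to 242544884 reads, are not library depths, and a deeper library passes the minimum of 6 at more places. MNase digestion and amplification depend on base composition, so GC was examined.

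Exons came from GENCODE v44 on GRCh37, with sequences read from that genome. The exons and gene lists were chosen with earlier results of these data known. Reads were assigned by dyad, and ratios to flanks at 200 to 500 bp were taken within a library, so that copy number divides out in part. The minimum of 6 reads leaves the ratios dependent on local coverage, and so on the size of the list and on copy number. Library values were compared by exact permutation tests. Counts within 100 bp of exon centres were tested with edgeR 4.0.16 (quasi-likelihood test, TMM scaling, Benjamini-Hochberg adjustment over 128034 internal exons with a mean of at least 10 reads, in R 4.3.3), after the script had been tested on simulated data. DESeq2 1.42.0, other windows, filters, scalings, GC offsets, a replicate block and leaving out each library were alternatives. The methods of the study call the replicates biological, without saying that they came from separate cultures. Nothing in the labels says so either, so p-values measure the spread between libraries, which may be technical. Named exons were the 5 rising and 5 falling ones with the smallest unadjusted p, the 5 sharpest, the 5 highest over their flanks with at least 30 flank reads, the 5 empty ones with the most flank reads, with at most 2 exons per gene, and listed genes. One of the rising exons is not reported here. The intron midpoints, the windows beside the exons, the exon length groups and the distance limit between dyads were chosen after seeing the data.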

Additional observations from a re-analysis of the deposited data

How the results depend on the processing

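The ratio of exon to flank reads, 1.39 as reported, was 1.45 with flanks from the exon edge, 1.5 with a minimum of 12 reads per nucleosome and 1.09 in exons whose GC was within 2 points of their flanks. The dyad ratio, 1.24 as reported, was 1.30, 1.43 and 1.14 under the same settings. The fuzziness difference of −0.181 bp was −0.382 bp with flanks from the exon edge. DESeq2 called 22 exons and edgeR 0, also in 11 of the 12 alternatives to the edgeR fit. All these ratios stayed above 1. Leaving out a library turned the sign of the knockdown minus control differences, which ran from −0.0626 to 0.0462 for the log2 ratio, from −0.628 to 0.653 bp for fuzziness and from −1.80 to 2.21 points for the share of exons with a dyad, and the remaining groups then differ in replicate number and in list size. A minimum of 12 reads turned the share to −0.128 points, and exons with GC alike to their flanks turned the log2 ratio to 0.026. Of 143 alternative values 107 stayed within the spread between replicates or near the count reported, and 36 moved, most of them single named exons. No result was called, so none could be reversed. The lone library left in a group was assumed to vary like the other group. With a replicate block, edgeR called 0 exons and 387 had an unadjusted p under 0.05, against 910 without it. Across exons, libraries with the same number deviated from their group means with a correlation of 0.0027, so the exon counts were not taken as pairs. The library measures did follow replicate number. Their log2 ratio differed between replicates by −0.109 in the control and −0.0998 in the knockdown. The unpaired permutation tests of library values therefore include this difference, which goes with list size. Depth limits the measures, since nucleosomes with fewer than 6 reads are absent from the lists.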
